A study of Mus musculus with 12 samples.

Results

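The genes described here are 50 genes of the mitotic spindle and of chromosome segregation, chosen by name for their role in mitosis, out of 24421 gene symbols in each count file. The choice was made with earlier results of these data known. All 50 were found in the files. They were measured by RNA sequencing in the liver tumors of 6 mice and in their non-tumoral livers. The mice made either Tert, the catalytic subunit of telomerase (p21+/Tert), or TertCi, a form without catalytic activity (p21+/TertCi), from the promoter of Cdkn1a, the gene of the cell cycle inhibitor p21. Of the 6 mice, 4 were p21+/Tert and 2 were p21+/TertCi, and each gave 1 tumor and 1 liver. Values of p21+/Tert mice are always given in the same order, T-HCC662 first, then T-HCC663, T-HCC941, and T-HCA992 for the tumors, and p_961, p_663, p_941, and NT_992 for the livers. Those of p21+/TertCi mice are given for TCi-HCC981 before TCi-HCA984 and for liver L981_CI before L984_CI. All mice received a standard diet and were over 18 months old. All 12 libraries thus come from mice with a p21-driven transgene, and livers without a transgene were not analysed here. A driver mutation is known for 4 of the tumors, in Ctnnb1 for T-HCC662 and T-HCC663, in Egfr for T-HCC941, and in Hras for TCi-HCC981, and genotype, mutation, and diagnosis cannot be told apart with 6 tumors. The name of T-HCC663 says carcinoma, whereas the study's histology calls this tumor an adenoma. The liver p_961 carries another animal number than any tumor, and it was assigned to the mouse of T-HCC662 by elimination. The column header of its count file does carry the number of that mouse.

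A dividing cell condenses its chromosomes, builds a bipolar spindle, attaches each sister chromatid to it through a kinetochore, and separates the sisters only after the spindle checkpoint is satisfied. Cyclin B with Cdk1 starts this sequence, and the anaphase-promoting complex with Cdc20 ends it by marking cyclin B and securin for destruction. Most genes of this program are transcribed only late in the cell cycle, so they are almost silent in a resting liver, where hepatocytes divide rarely. In bulk tissue, a higher level can come from more cells in division or from more RNA per dividing cell, and these cannot be told apart.

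Many of these genes carry a short element near their start, the cell cycle homology region (CHR, TTTGAA or TTCGAA), which is bound by the MuvB complex and represses the gene outside G2 and M, and CCAAT boxes, which are bound by NF-Y. RefSeq promoter windows (GRCm38.p6, 250 bases before to 50 after the start) matched 41 of the 50 genes by symbol. The windows of 9 genes that the results below turn on are shown around the CHR motif nearest to the start, 30 bases each, 5′ to 3′ on the strand of the gene, with the motif in capitals (TTCAAA is TTTGAA read from the other strand).

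Cdk1 (chr10:69352910-69352939, - strand): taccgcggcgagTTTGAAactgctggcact
Ccnb2 (chr9:70421533-70421562, - strand): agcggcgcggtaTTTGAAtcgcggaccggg
Cdc20 (chr4:118437344-118437373, - strand): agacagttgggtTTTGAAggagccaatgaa
Plk1 (chr7:122159453-122159482, + strand): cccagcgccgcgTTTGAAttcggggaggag
Cenpf (chr1:189688067-189688096, - strand): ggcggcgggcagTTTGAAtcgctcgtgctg
Kif23 (chr9:61946780-61946809, - strand): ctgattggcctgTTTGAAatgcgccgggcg
Prc1 (chr7:80294434-80294463, + strand): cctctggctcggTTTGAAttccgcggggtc
Racgap1 (chr15:99651634-99651663, - strand): ctggtgcgtgatTTTGAAccggatctggcg
Top2a (chr11:99024195-99024224, - strand): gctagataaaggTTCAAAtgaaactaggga

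The first base of the motif lay 15 bases before the start of Cdk1, 18 before that of Cdc20, 5 before that of Prc1, and 23 before that of Top2a. In Ccnb2, Plk1, Cenpf, Kif23, and Racgap1 it lay 4, 30, 2, 2, and 5 bases after the start. These distances hold for the RefSeq start, and the GENCODE annotation places some starts elsewhere. There, Kif23 starts at chr9:61946774 on the - strand, so that its whole printed window lies before that start. With both strands searched, the CHR motif was present in 32 of the 41 windows (78.05%), whereas 16.42% of the 10303 tested genes with a window and 19.4% of all 17224 genes with a window held it. A motif that began within 50 bases of the start was found in 28 of 41 (68.29%), compared with 4.309% of tested genes. CCAAT was present in 31 of 41 (75.61%, compared with 42.61%), and at least 2 CCAAT boxes in 21 (51.22%, compared with 16.12%). Both kinds of motif stood in 1 window in 28 genes (68.29%), compared with 6.678% of tested genes. Among 91 other genes of the mitotic pathway with a window, listed by function, 46.15% held the CHR motif and 30.77% held both kinds. The windows of Ccnb1, Cks2, Mad2l1, Pttg1, Birc5, Cenpe, Nuf2, Nusap1, and Ncaph held no CHR motif. These counts describe letters in a window of fixed length and are not evidence of binding.

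**Figure D1:**
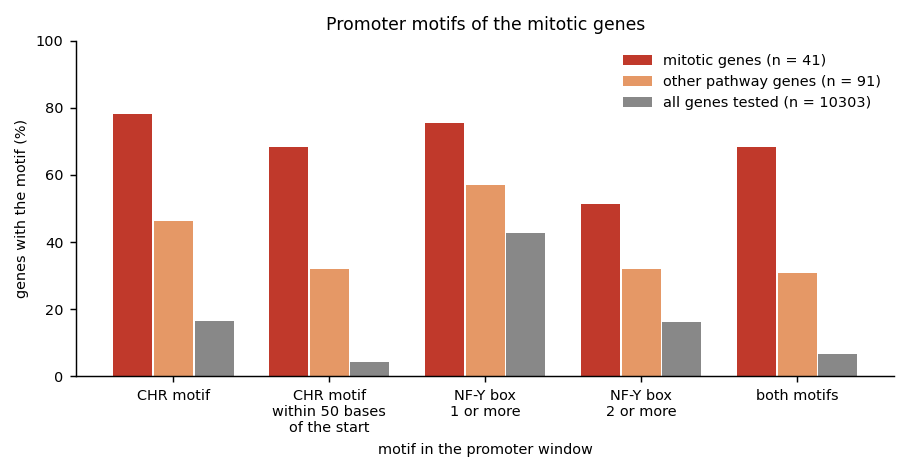
Share of genes (%, bars) whose promoter window holds the CHR motif, the CHR motif within 50 bases of the start, at least 1 NF-Y (CCAAT) box, at least 2 such boxes, or both motifs, for the mitotic genes (n = 41), other pathway genes (n = 91), and all genes tested with a window (n = 10303). The share is highest for the mitotic genes in each of the 5 groups of bars, from 51.22% to 78.05%.

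Between 14571716 and 26170661 reads per library were counted on genes, and the 10 most abundant genes took 10.2% to 21.7% of them. Levels are given as CPM, counts per 1000000 of the library size scaled by edgeR's TMM method. Differences are given as log2 fold changes from edgeR's quasi-likelihood test, with Benjamini-Hochberg adjusted p over all genes tested and a threshold of 0.05. Their SE was back-calculated as the absolute log2 fold change divided by the square root of the test's F statistic. It therefore carries no information beyond the fold change and the test. Values from DESeq2 are given with the SE of DESeq2. Summed over 6 hepatocyte markers, the level was 16455 to 93548 CPM in all 12 libraries. Tert was present at 10.7 to 17.5 CPM in the livers and at 4.62 to 26.1 CPM in the tumors. Cdkn1a, the gene whose promoter drives the transgene, was present at 1.64 to 52.2 CPM in the livers and at 32.4 to 79.6 CPM in the tumors (p21+/Tert tumors against livers, log2 fold change 2.54 ± 0.85, adjusted p = 0.102). The liver L981_CI stood apart from the other 5. It had the highest level of 33 of the 50 genes among the livers, and its 7 macrophage markers summed to 1358 CPM, compared with 125 to 280 CPM in the other livers. TCi-HCC981 also held 946 CPM of these markers, T-HCC663 held 578 CPM, and the other tumors held 79.6 to 144 CPM. Bile duct markers summed to 1064 CPM in T-HCA992 and 406 CPM in T-HCC941, and to 17.7 to 288 CPM in the other libraries. Of these sums, Spp1 alone made up 1037 and 376 CPM, whereas the keratin Krt19 was at 1.00 and 0.318 CPM in the same tumors and at 0.463 to 2.95 CPM in the livers. B and plasma cell markers summed to 137 CPM in liver NT_992, compared with 3.12 to 26.2 CPM in the other livers. No cell type marker passed the threshold in p21+/Tert mice. Over all 6 tumors, the endothelial marker Pecam1 was higher (log2 fold change 1.59 ± 0.38, adjusted p = 0.0179) and the erythroid marker Klf1 lower (-2.01 ± 0.45, adjusted p = 0.0133) than in the 6 livers. The other markers of both lists missed the threshold, and each list held log2 fold changes of both signs. They were positive for 4 of 6 endothelial markers (-0.98 to 1.59) and for 3 of 5 erythroid markers tested (median 0.43). The part of other cell types in the results was not tested.

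The first comparison asked whether the mitotic genes differed between tumor and liver in p21+/Tert mice. In the 4 p21+/Tert tumors, 40 of the 50 genes were up-regulated relative to the 4 p21+/Tert livers and none was down-regulated, whereas 4.2% of the 15182 genes tested were up-regulated and 2.3% were down-regulated. The median log2 fold change over the 50 genes was 3.27, compared with 0.04 over all genes tested. For 47 of the 50 genes every p21+/Tert tumor lay above every p21+/Tert liver, a pattern found in 8.13% of all genes tested; the exceptions were Cks2, Pttg1, and Kif20a. All 50 genes passed the expression filter here. However, 7 of them reached its floor of 0.533 CPM in fewer than 2 of the 6 livers. These 7, Ccnb1, Cdc25c, Bub1, Ttk, Cenpe, Ndc80, and Hmmr, thus passed it through their level in the tumors. Their levels rest on few reads in most livers, so the size of their fold changes is uncertain and their tests are no independent support. With every gene of at least 1 count kept instead, 39 of the 50 were up-regulated (3.32% of all genes), and DESeq2 gave 47 (8.79%). With RLE size factors the count was again 40 (4.22% of all genes), with the mouse as a replicate block 46 (5.17%), and with the 8 compared libraries alone 46 (5.05%). The count rested on single livers. It was 7 without liver p_961 (0.996% of all genes), 8 without p_663 (1.47%), and 13 without p_941 (1.7%). Without liver L981_CI it was 44 (3.9%). In the 12 fits that each left out 1 library, 7 of the 50 genes passed the threshold every time, and the share over all genes was not computed. The 7 genes were Aurka, Ect2, Kif20b, Kif22, Prc1, Spc25, and Tpx2, and they were singled out after their values were seen.

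**Figure D2:**
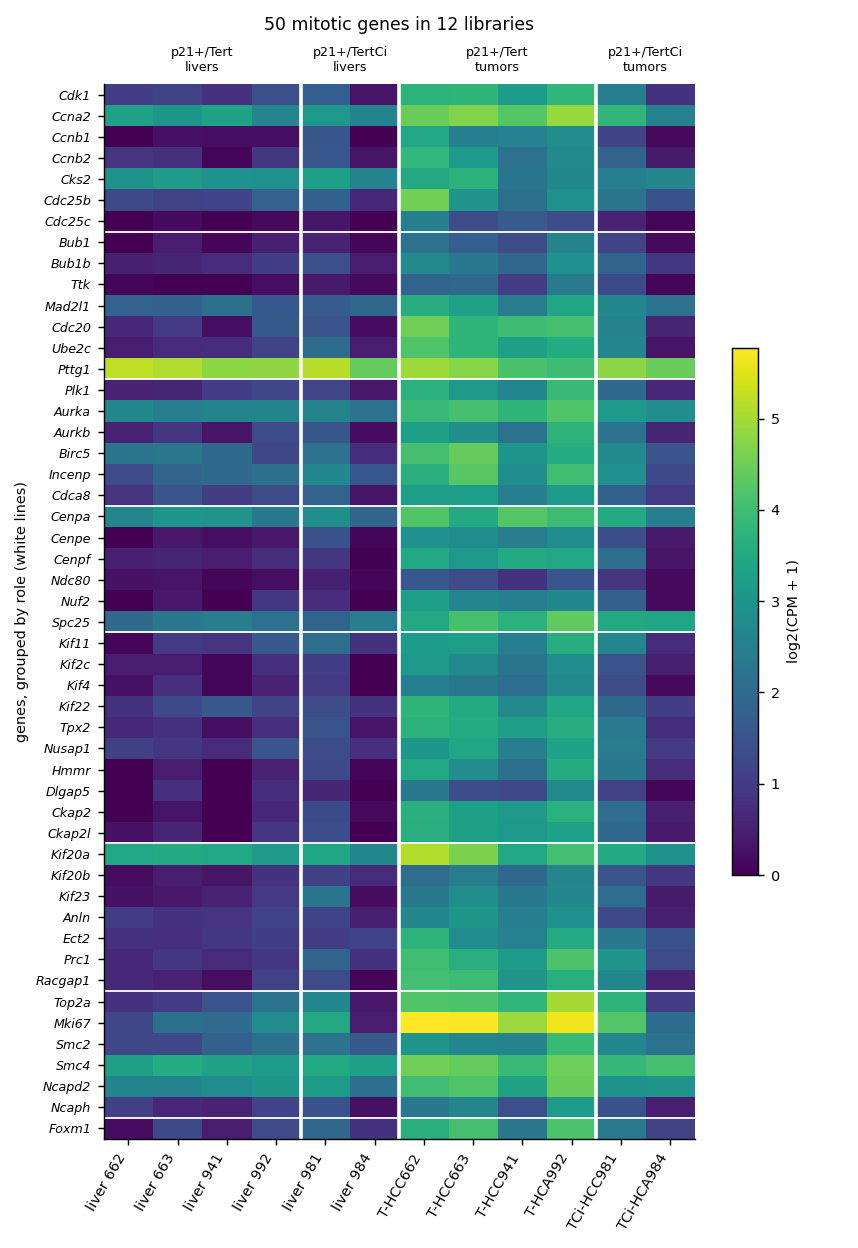
Level of each of the 50 genes (rows, grouped by role) in each of the 12 libraries (columns, livers named by the number of the mouse), as log2(CPM + 1) on a color scale. The 4 p21+/Tert tumors are brighter than the livers in nearly every row, TCi-HCA984 resembles the livers in most rows, and the rows of Cks2 and Pttg1 are bright in livers and tumors.

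Cyclins, Cdk1, and its activators form the engine of mitotic entry. Of these 7 genes, 6 were up-regulated in p21+/Tert tumors (Cdk1, Ccna2, Ccnb1, Ccnb2, Cdc25b, and Cdc25c). Cdk1, the kinase that drives entry into mitosis, was present at 1.07, 1.15, 0.771, and 1.65 CPM in the p21+/Tert livers and at 12.3, 12.8, 8.00, and 12.9 CPM in their tumors. In the p21+/TertCi mice it was present at 2.32 and 0.248 CPM in the livers and at 4.58 and 0.805 CPM in their tumors. All 4 p21+/Tert tumors lay above the other 8 libraries, and TCi-HCA984 lay within the range of the livers (log2 fold change 3.29 ± 0.67, adjusted p = 0.0184). Ccna2, the cyclin of S phase and G2, was already present in every liver, at 8.86, 7.37, 9.02, and 5.16 CPM in p21+/Tert mice and 7.43 and 5.05 CPM in p21+/TertCi mice. Its tumors held 21.1, 24.7, 18.02, and 28.4 CPM in p21+/Tert mice, above all livers, and 13.0 and 4.83 CPM in p21+/TertCi mice, of which the second lay below all livers (log2 fold change 1.60 ± 0.32, adjusted p = 0.0176 in p21+/Tert mice). Of its exon bases, 12.5% are shared with Exosc9 on the other strand, and whether the counting used strand is not given in the sources used here.

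Ccnb1, cyclin B1, had the largest log2 fold change of the 50 genes in p21+/Tert mice (log2 fold change 5.56 ± 1.21, adjusted p = 0.0232). This gene passed the expression filter through its level in the tumors, so the size and the rank rest on few liver reads. It was nearly silent in the p21+/Tert livers, at 0, 0.192, 0.154, and 0.160 CPM, and their tumors held 9.88, 4.62, 4.72, and 6.19 CPM. The p21+/TertCi livers held 1.94 and 0 CPM and their tumors 1.27 and 0.115 CPM, so that L981_CI held more than TCi-HCC981. The genome holds 3 near-identical copies of Ccnb1 (at least 95% identity over 150 bases), so that its reads could be split and its counts are uncertain. Ccnb2, cyclin B2, was present at 0.857, 0.705, 0.0771, and 0.904 CPM in p21+/Tert livers and 13.2, 7.73, 3.50, and 5.62 CPM in the tumors (log2 fold change 3.54 ± 0.87, adjusted p = 0.0361). T-HCC662 held the most and T-HCC941 the least of these tumors, and the p21+/TertCi values were 1.98 and 0.248 CPM in the livers and 2.60 and 0.345 CPM in the tumors.

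Cdc25b, a phosphatase that activates Cdk1, was highest in T-HCC662, with 22.5, 7.04, 3.39, and 6.66 CPM in the p21+/Tert tumors. The livers of these mice held 1.43, 1.22, 1.23, and 2.50 CPM (log2 fold change 2.62 ± 0.65, adjusted p = 0.0369). The p21+/TertCi livers held 2.45 and 0.595 CPM and the tumors 3.66 and 1.72 CPM, and TCi-HCC981 lay above T-HCC941. Cdc25c, a second such phosphatase, was at 0, 0.128, 0, and 0.106 CPM in the p21+/Tert livers and at 4.65, 1.56, 2.17, and 1.54 CPM in their tumors (log2 fold change 5.17 ± 1.11, adjusted p = 0.0229). It was at 0.253 and 0 CPM in the p21+/TertCi livers and at 0.458 and 0.0575 CPM in their tumors. Of its exon bases, 12.7% are shared with Gm3550 on the other strand. It did not pass the expression filter in the comparison of all 6 tumors with all 6 livers. Cks2, a small Cdk-binding protein, was the 1 gene of this group that missed the threshold. It was present at 6.78, 8.14, 6.79, and 6.44 CPM in p21+/Tert livers, 8.61 and 4.95 CPM in p21+/TertCi livers, 10.2, 12.1, 3.76, and 5.44 CPM in p21+/Tert tumors, and 4.63 and 5.35 CPM in p21+/TertCi tumors. The groups overlapped throughout (log2 fold change 0.16 ± 0.36, adjusted p = 0.831, or -0.11 without T-HCC663), and 3 near-identical copies of Cks2 make its counts uncertain as well. Mad2l1, Cdc20, Mki67, and Racgap1 have 1 such copy each.

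**Figure D3:**
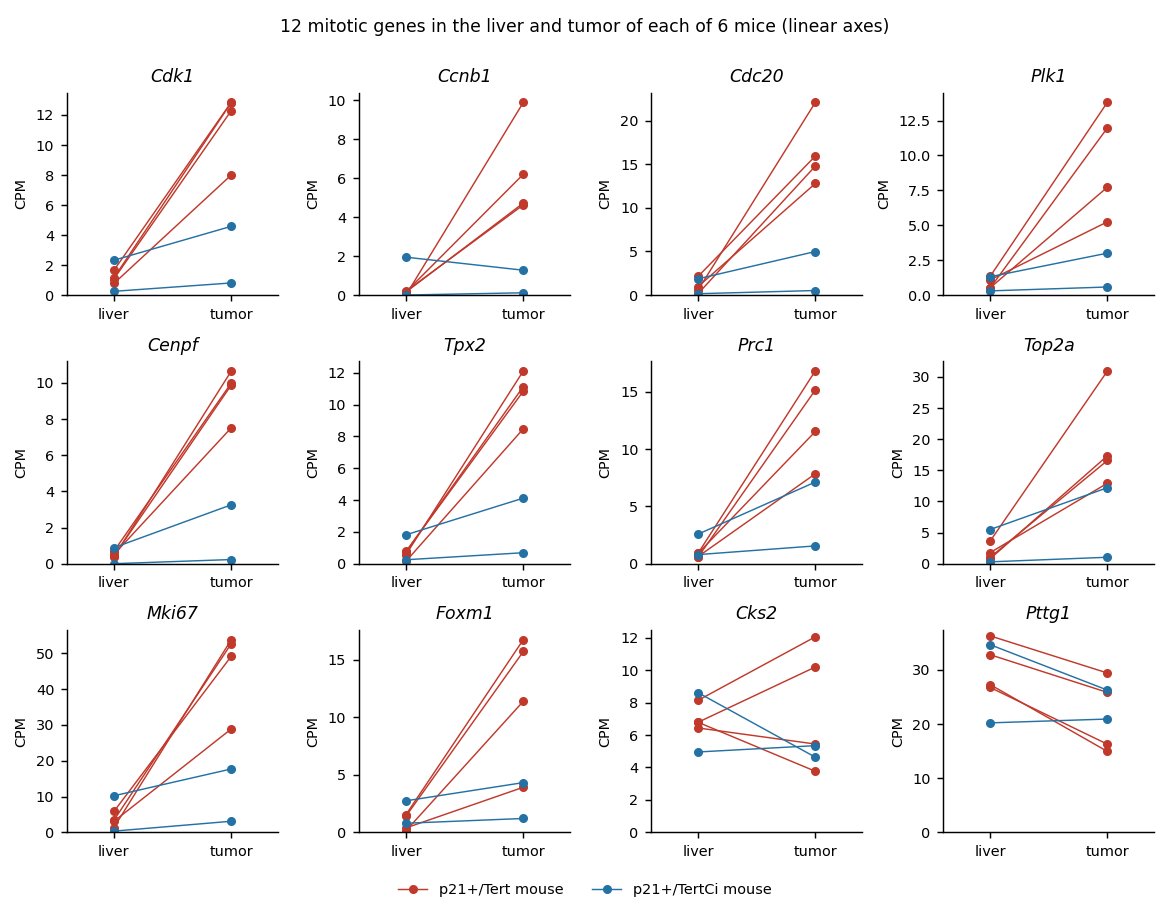
Level (CPM, linear axes that start at 0) of 12 genes in the non-tumoral liver and the tumor of each mouse, with a line joining the 2 libraries of 1 mouse, red for p21+/Tert and blue for p21+/TertCi. For the first 10 genes all red lines rise and end above both blue lines, except that for Foxm1 T-HCC941 ends below TCi-HCC981, whereas the lines of Cks2 cross and 5 of 6 lines of Pttg1 fall.

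The spindle checkpoint and the regulators of the anaphase-promoting complex comprise 7 genes, of which 5 (Bub1b, Ttk, Mad2l1, Cdc20, and Ube2c) were up-regulated in p21+/Tert tumors. Bub1b, a checkpoint protein that holds Cdc20 inactive, was present at 0.429, 0.512, 0.617, and 1.12 CPM in p21+/Tert livers and 5.54, 3.93, 2.76, and 6.52 CPM in the tumors (log2 fold change 2.79 ± 0.59, adjusted p = 0.0224). In p21+/TertCi mice, the livers held 1.65 and 0.347 CPM and the tumors 2.65 and 0.920 CPM. Its groups did not overlap in p21+/Tert mice, and TCi-HCC981 lay just below T-HCC941. Cdc20, the activator of the anaphase-promoting complex, was present at 0.571, 0.961, 0.154, and 2.13 CPM in the p21+/Tert livers and at 22.1, 12.8, 14.8, and 15.9 CPM in their tumors (log2 fold change 4.07 ± 0.90, adjusted p = 0.0249). The p21+/TertCi tumors held 4.99 and 0.517 CPM, compared with 1.86 and 0.149 CPM in their livers.

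Ttk, the kinase at the head of the checkpoint, had the third largest log2 fold change in p21+/Tert mice (log2 fold change 5.29 ± 1.12, adjusted p = 0.0219). Like Ccnb1, it passed the expression filter through its level in the tumors. It was at 0.0714, 0, 0, and 0.160 CPM in the livers and 2.64, 2.76, 1.06, and 4.22 CPM in the tumors, which makes it one of the rarest transcripts of the list. TCi-HCC981 held more than T-HCC941 (1.48 and 0.0575 CPM in the p21+/TertCi tumors, 0.338 and 0.0991 CPM in their livers). Bub1, the partner kinase at the kinetochore, was at 0, 0.384, 0.0771, and 0.425 CPM in p21+/Tert livers and 3.49, 2.33, 1.54, and 4.98 CPM in the tumors, and its test missed the threshold (log2 fold change 3.71 ± 1.01, adjusted p = 0.0513). For Bub1, the p21+/TertCi livers held 0.464 and 0.0495 CPM and the tumors 1.22 and 0.115 CPM. Mad2l1, which binds Cdc20, rose in p21+/Tert tumors (log2 fold change 1.72 ± 0.34, adjusted p = 0.0171), and Ube2c, the ubiquitin-conjugating enzyme of the complex, did as well (log2 fold change 4.03 ± 0.88, adjusted p = 0.0240). Of the exon bases of Ube2c, 22.8% are shared with Tnnc2 on the other strand.

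Pttg1, which encodes securin, the inhibitor of separase, was the only gene of the 50 with a negative log2 fold change in p21+/Tert tumors (log2 fold change -0.51 ± 0.26, adjusted p = 0.270). It was present at 36.3, 32.8, 26.8, and 27.3 CPM in the p21+/Tert livers and at 29.4, 25.8, 16.3, and 14.9 CPM in their tumors. The p21+/TertCi livers held 34.7 and 20.2 CPM and their tumors 26.3 and 20.9 CPM. The tumor lay below the liver of the same mouse in 5 of 6 mice, and the groups overlapped. Per kilobase of exon, Pttg1 had the highest level of the 50 genes in livers and in tumors (means of 14.8 and 11.1 CPM per kb), and Cks2 the second highest (10.0 and 9.98 CPM per kb). Kif20a followed in livers at 2.03 CPM per kb, and Cdc20 followed in tumors at 6.34 CPM per kb, from 0.519 CPM per kb in livers. Per kilobase, the 2 genes of highest level in the livers were thus the 2 of smallest log2 fold change. In CPM, Smc4, Kif20a, and Ccna2 (means of 9.31, 8.81, and 7.15 in the livers) lay between Pttg1 (29.7) and Cks2 (6.95).

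Mitotic kinases and the chromosomal passenger complex, which corrects faulty attachments and positions the cleavage furrow, comprise 6 genes, and all 6 (Plk1, Aurka, Aurkb, Birc5, Incenp, and Cdca8) were up-regulated in p21+/Tert tumors. The scaffold Incenp and the targeting subunit Cdca8 had log2 fold changes of 2.28 and 2.46. Plk1, which acts from mitotic entry to cytokinesis, was present at 0.500, 0.512, 1.08, and 1.33 CPM in p21+/Tert livers and 12.0, 7.73, 5.25, and 13.8 CPM in the tumors (log2 fold change 3.49 ± 0.66, adjusted p = 0.0131). The p21+/TertCi tumors held 3.00 and 0.575 CPM and their livers 1.31 and 0.297 CPM. All 4 p21+/Tert tumors lay above the other 8 libraries. Aurkb, the kinase of the passenger complex, was present at 0.500, 0.897, 0.231, and 1.49 CPM in the livers and 8.63, 6.35, 3.45, and 12.4 CPM in the tumors of p21+/Tert mice (log2 fold change 3.27 ± 0.86, adjusted p = 0.0464), and at 1.94 and 0.149 CPM in the livers and 3.56 and 0.517 CPM in the tumors of p21+/TertCi mice. Here TCi-HCC981 lay above T-HCC941. Birc5, survivin, which anchors the complex, held 3.64, 3.91, 2.93, and 1.33 CPM in p21+/Tert livers and 16.0, 20.4, 7.21, and 10.8 CPM in the tumors (log2 fold change 2.20 ± 0.58, adjusted p = 0.0460). Its p21+/TertCi livers held 3.55 and 0.694 CPM and the tumors 5.80 and 1.90 CPM. The test of Aurkb and of Birc5 passed the threshold narrowly, and each passed it in 4 of the 12 fits without 1 library. Aurka, the centrosomal Aurora kinase, had the second smallest adjusted p of the 50 genes in p21+/Tert mice (log2 fold change 1.57 ± 0.21, adjusted p = 0.00399), with values that were closer together, 5.50, 4.55, 5.09, and 5.11 CPM in livers and 14.1, 15.9, 12.8, and 17.4 CPM in tumors. Every tumor of either genotype lay above every liver for Aurka, with 4.98 and 3.57 CPM in the p21+/TertCi livers and 7.43 and 6.15 CPM in the tumors.

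The centromere and kinetochore genes comprise 6 genes, of which 5 (Cenpa, Cenpe, Cenpf, Ndc80, and Spc25) were up-regulated in p21+/Tert tumors. Cenpf, a kinetochore protein of G2 and M, was at 0.429, 0.512, 0.386, and 0.691 CPM in p21+/Tert livers and 9.88, 7.52, 10.7, and 9.99 CPM in the tumors (log2 fold change 4.21 ± 0.92, adjusted p = 0.0234). It was one of 2 genes, with Cenpa, whose highest level was in T-HCC941. In p21+/TertCi mice Cenpf was at 0.886 and 0 CPM in the livers and 3.26 and 0.230 CPM in the tumors. The NDC80 complex, which binds microtubules, was represented by Ndc80, Nuf2, and Spc25, and for each of them every p21+/Tert tumor lay above every p21+/Tert liver. Ndc80 itself was at 0.214, 0.256, 0.0771, and 0.160 CPM in p21+/Tert livers and 1.97, 1.51, 0.795, and 1.90 CPM in the tumors (log2 fold change 3.07 ± 0.80, adjusted p = 0.0444), with 0.422 and 0.0495 CPM in the p21+/TertCi livers and 0.865 and 0.115 CPM in the tumors. Cenpa, the histone H3 variant that marks centromeres, and Cenpe, a kinetochore motor, had log2 fold changes of 1.37 and 4.78. Nuf2, the partner of Ndc80, missed the threshold (log2 fold change 4.15 ± 1.26, adjusted p = 0.0745). Spc25, at the other end of the complex, was present at 3.00, 3.91, 4.47, and 3.46 CPM in the p21+/Tert livers and rose to 10.3, 16.0, 11.8, and 19.7 CPM in their tumors (log2 fold change 1.96 ± 0.28, adjusted p = 0.00487). For Spc25, the p21+/TertCi livers held 2.62 and 4.36 CPM and the tumors 10.4 and 9.54 CPM, so that all 6 tumors lay above all 6 livers.

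Kinesins and other spindle and microtubule-associated proteins comprise 10 genes, of which 7 (Kif2c, Kif22, Tpx2, Nusap1, Hmmr, Ckap2, and Ckap2l) were up-regulated in p21+/Tert tumors. Kif11, the motor that pushes the spindle poles apart, was at 0.0714, 0.961, 0.848, and 2.07 CPM in p21+/Tert livers and 8.00, 8.34, 4.61, and 11.2 CPM in the tumors, and it missed the threshold (log2 fold change 3.00 ± 0.83, adjusted p = 0.0563). Its groups did not overlap within p21+/Tert mice, but the livers ran from 0.0714 CPM in p_961 to 2.07 CPM in NT_992. The p21+/TertCi livers held 3.17 and 0.793 CPM and the tumors 5.19 and 0.690 CPM, and TCi-HCC981 lay above T-HCC941. Tpx2, which activates Aurka on the spindle, was at 0.571, 0.769, 0.154, and 0.745 CPM in p21+/Tert livers and 12.1, 10.8, 8.48, and 11.1 CPM in the tumors (log2 fold change 4.22 ± 0.73, adjusted p = 0.00958). All 4 of these tumors lay above the other 8 libraries, with 1.81 and 0.248 CPM in the p21+/TertCi livers and 4.12 and 0.690 CPM in the tumors. Ckap2, a cytoskeleton-associated protein of the spindle poles, had the second largest log2 fold change (log2 fold change 5.43 ± 1.11, adjusted p = 0.0190). It was at 0, 0.256, 0, and 0.585 CPM in the p21+/Tert livers and 11.7, 8.77, 7.53, and 11.8 CPM in the tumors, and at 1.48 and 0.0991 CPM in the p21+/TertCi livers and 3.21 and 0.402 CPM in the tumors. The log2 fold changes of Kif2c, a microtubule depolymerase, Kif22, a chromosome-arm motor, Nusap1, Hmmr, and Ckap2l were 3.82, 2.79, 2.74, 5.02, and 4.41. Kif4 (adjusted p = 0.0647) and Dlgap5 (adjusted p = 0.172) missed the threshold, with log2 fold changes of 3.54 and 3.13. Of the exon bases of Kif4, 15.1% are shared with Pdzd11 on the other strand.

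The central spindle and cytokinesis comprise 7 genes, of which 5 (Kif20b, Anln, Ect2, Prc1, and Racgap1) were up-regulated in p21+/Tert tumors. Prc1, which bundles the antiparallel microtubules of the central spindle, was at 0.571, 0.897, 0.617, and 0.904 CPM in p21+/Tert livers and 15.2, 11.5, 7.84, and 16.8 CPM in the tumors (log2 fold change 4.08 ± 0.56, adjusted p = 0.00426). In p21+/TertCi mice, Prc1 was at 2.57 and 0.793 CPM in the livers and 7.12 and 1.55 CPM in the tumors. All 4 p21+/Tert tumors lay above the other 8 libraries. Of its exon bases, 11.1% are shared with Rccd1 on the other strand. Ect2, the exchange factor that starts furrow ingression, had the smallest adjusted p of the 50 genes (log2 fold change 3.24 ± 0.43, adjusted p = 0.00359). Kif20b, a motor related to Kif20a, and Anln, the actin-binding anillin of the furrow, had log2 fold changes of 3.27 and 2.60. Kif20a, a motor of the central spindle, was at 10.1, 10.6, 9.79, and 7.66 CPM in p21+/Tert livers and 33.8, 23.8, 9.86, and 15.6 CPM in the tumors. T-HCC941 lay within the range of the livers, and the test missed the threshold (log2 fold change 1.13 ± 0.36, adjusted p = 0.0914). The p21+/TertCi tumors held 10.6 and 6.72 CPM and their livers 9.54 and 5.25 CPM. Of its exon bases, 29.3% are shared with Cdc23 on the other strand, the largest share among the 50 genes, and its counts are uncertain for that reason. Kif23, the motor of the centralspindlin complex, missed the threshold in p21+/Tert mice (log2 fold change 3.29 ± 0.91, adjusted p = 0.0563), and its partner Racgap1 passed it (log2 fold change 4.33 ± 0.96, adjusted p = 0.0245). Kif23 was at 0.214, 0.320, 0.463, and 0.957 CPM in the p21+/Tert livers and 4.02, 6.13, 4.03, and 5.37 CPM in their tumors, and at 3.76 and 0.149 CPM in the p21+/TertCi livers and 3.26 and 0.345 CPM in their tumors. Its level in liver L981_CI lay just below those in the p21+/Tert tumors.

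Genes of chromosome structure comprise 6 genes, of which 5 (Top2a, Mki67, Smc2, Smc4, and Ncapd2) were up-regulated in p21+/Tert tumors. Top2a, the topoisomerase that untangles sister chromatids, was at 0.786, 1.02, 1.77, and 3.62 CPM in p21+/Tert livers and 17.3, 16.6, 12.9, and 31.0 CPM in the tumors (log2 fold change 3.42 ± 0.91, adjusted p = 0.0481). TCi-HCC981 lay close to T-HCC941 and TCi-HCA984 far below, with 12.2 and 1.03 CPM, compared with 5.49 and 0.297 CPM in their livers. Mki67, the chromosome surfactant whose protein Ki67 is a common marker of cycling cells, was present at 1.36, 3.40, 3.08, and 5.85 CPM in p21+/Tert livers and 53.8, 52.7, 28.9, and 49.2 CPM in the tumors (log2 fold change 3.74 ± 0.85, adjusted p = 0.0264). In p21+/TertCi mice, Mki67 was at 10.2 and 0.347 CPM in the livers and 17.7 and 3.10 CPM in the tumors. Every p21+/Tert tumor lay above all other libraries for Mki67. The study's staining of the protein Ki67 gave another order, strong in T-HCC941 and minimal in T-HCA992 and TCi-HCA984. The RNA was low in TCi-HCA984 as well, but among the p21+/Tert tumors it was lowest in T-HCC941 and higher in T-HCA992. The reason for this difference between RNA and protein was not tested. Smc4, a core subunit of both condensins, had the smallest log2 fold change of the genes that passed the threshold (log2 fold change 1.09 ± 0.20, adjusted p = 0.0125), from 8.78, 11.0, 9.02, and 7.82 CPM in livers to 21.9, 20.3, 14.2, and 21.8 CPM in tumors. All 6 tumors lay above all 6 livers, with 10.5 and 8.77 CPM in the p21+/TertCi livers and 13.4 and 15.8 CPM in the tumors. Smc2, the partner of Smc4, and Ncapd2, a subunit of condensin I, had log2 fold changes of 1.87 and 1.41. Ncaph, also of condensin I, missed the threshold (log2 fold change 2.45 ± 0.74, adjusted p = 0.0737).

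Foxm1 is the only transcription factor among the 50 and an activator of many of the others. It was at 0.143, 1.41, 0.386, and 1.54 CPM in p21+/Tert livers and 11.4, 15.7, 3.92, and 16.8 CPM in the tumors (log2 fold change 3.75 ± 0.79, adjusted p = 0.0215). The p21+/TertCi livers held 2.74 and 0.793 CPM and the tumors 4.33 and 1.21 CPM. T-HCC941 lay below TCi-HCC981, and the other 3 p21+/Tert tumors lay above all other libraries.

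**Figure D4:**
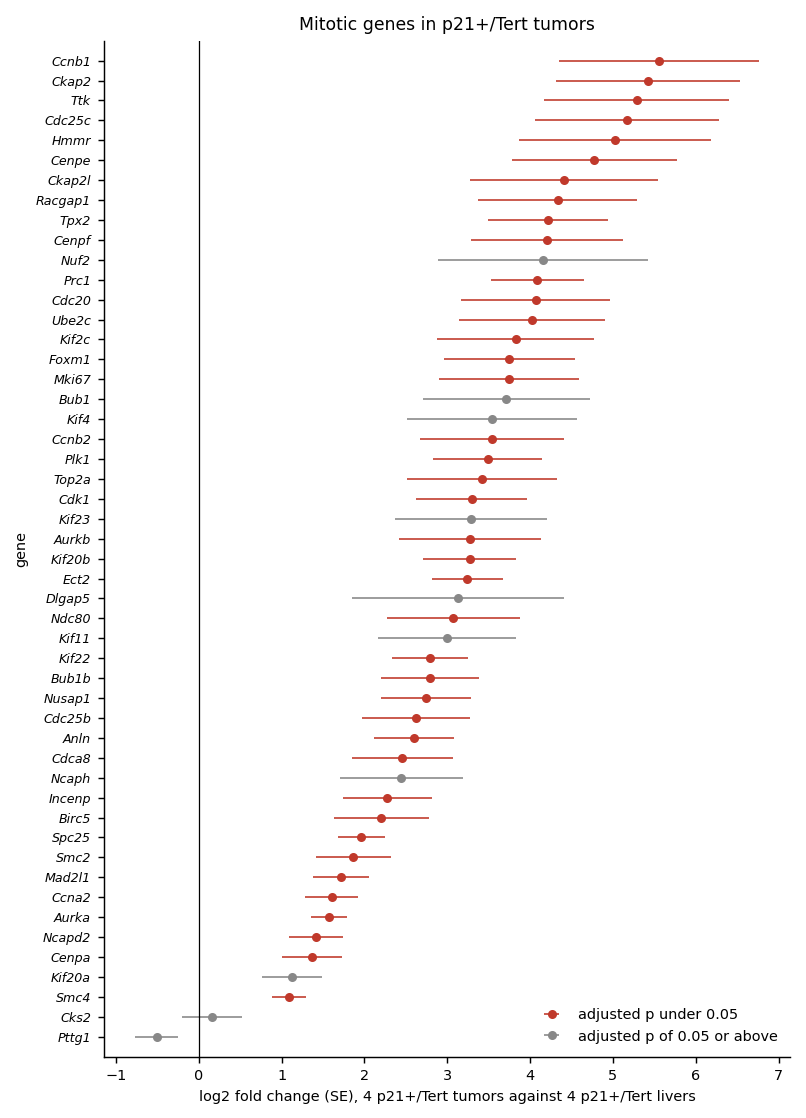
Log2 fold change (points) with its SE (bars) of each of the 50 genes in the 4 p21+/Tert tumors against the 4 p21+/Tert livers, ordered by size, red where the adjusted p was under 0.05. The values run from -0.51 for Pttg1 to 5.56 for Ccnb1, and 10 genes are grey.

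Over both genotypes together, 38 genes were up-regulated in the 6 tumors relative to the 6 livers and none was down-regulated, whereas 6.77% of the 13822 genes tested were up-regulated and 3.91% down-regulated. Cdc25c, Bub1, Ttk, and Ndc80 did not pass the expression filter, so that 46 of the 50 were tested. With every gene of at least 1 count kept, all 50 were tested and 41 were up-regulated (5.43% of all genes). DESeq2 gave 42 (10.5%), RLE size factors 38 (6.89%), and the mouse as a replicate block 40 (8.64%). The genes tested that missed the threshold were Ccnb1 (adjusted p = 0.0640), Kif11 (0.0526), Ncaph (0.0735), Dlgap5 (0.0945), Kif20a (0.112), Kif23 (0.132), Pttg1 (0.223), and Cks2, whose log2 fold change of 0.00 ± 0.30 changed sign under other scalings. Spc25 had the smallest adjusted p (log2 fold change 1.85 ± 0.24, adjusted p = 0.000956). Every tumor lay above every liver for 5 genes (Mad2l1, Aurka, Spc25, Ect2, and Smc4), a pattern found in 2.79% of all genes tested. The count of 38 also depended on single libraries. It was 22 without liver p_961 (4.14% of all genes), 24 without p_663 (4.66%), 22 without p_941 (4.72%), and 22 without T-HCA992 (4.82%). It was 44 without liver L981_CI (7.89%) and 45 without TCi-HCA984 (7%). In the 12 fits without 1 library, 20 of the 46 genes tested passed the threshold every time, and the share over all genes was not computed.

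In the p21+/TertCi mice alone, none of the 50 genes passed the threshold in edgeR, and neither did any other of the 15182 genes tested. At an unadjusted p under 0.05, 3 of the 50 were higher in the 2 tumors and none was lower. Over all genes, 6.42% were higher and 4.24% lower, so that the 3 higher genes were close to the share over all genes. The 3 genes, named after their values were seen, were Spc25 (log2 fold change 1.52 ± 0.40, unadjusted p = 0.00265), Ect2 (1.31 ± 0.57, 0.0417), and Aurka (0.67 ± 0.30, 0.0456). DESeq2 called 1 of the 50, Spc25 (adjusted p = 0.0161), a share close to the 1.95% of all genes called in this direction. The median log2 fold change over the 50 genes was 0.84, compared with -0.03 over all genes tested, and 46 of the 50 values were positive. The values had large errors, as for Cdk1 (1.06 ± 0.88), Mki67 (0.97 ± 1.09), and Ccnb1 (-0.48 ± 1.37), of which Ccnb1 changed sign, to 0.064, with the mouse as a replicate block. Without TCi-HCC981, Cdk1 and Mki67 changed sign, to -0.68 and -0.77. Ccnb1 turned positive without liver L981_CI, when its remaining liver had no count, and was 0.37 without TCi-HCA984. Without liver L981_CI, none of the 50 passed the threshold either.

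Whether the tumor-liver difference differed between the genotypes was tested with the interaction of tissue and genotype. None of the 50 genes passed the threshold in edgeR or DESeq2. DESeq2 called 0.0132% of all genes with a larger difference in p21+/Tert mice. At an unadjusted p under 0.05, 16 of the 50 genes had a larger difference in p21+/Tert mice and none a smaller one, whereas 2.11% of all genes had a larger and 1.55% a smaller one. Liver L981_CI, which had the highest liver level of 33 of the 50 genes, is 1 of the 2 p21+/TertCi livers in this comparison. Its part in the count of 16 was not tested. Ccnb1 had the smallest p of the 50 (interaction 6.04 ± 1.88 on the log2 scale, adjusted p = 1.00), and the level in liver L981_CI enters this value. Between the tumors of the genotypes, none passed the threshold in edgeR, and 25 of the 50 were higher in p21+/Tert tumors at an unadjusted p under 0.05 and none lower, compared with 6.98% and 4.56% of all genes. DESeq2 called 3 genes higher in p21+/Tert tumors, Aurka (log2 difference 1.15 ± 0.25, adjusted p = 0.00173), Anln (2.64 ± 0.59, adjusted p = 0.00204), and Kif22 (2.22 ± 0.55, adjusted p = 0.00914), and 1.6% of all genes in this direction. The median log2 difference between the tumor groups was 1.89 over the 50 genes and 0.00 over all genes tested. Between the livers of the genotypes, none of the 50 genes passed in edgeR or DESeq2 (0.151% of all genes higher in DESeq2). At an unadjusted p under 0.05, 1 gene (Ccnb1) was lower in p21+/Tert livers and none was higher, compared with 2.82% and 2.16% of all genes.

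Each tumor was then set against the liver of its own mouse, as a description with 1 pair per mouse and no test. The difference in log2(CPM + 1), with a pseudocount of 1 CPM that understates the change of rare transcripts, was positive for 49 of the 50 genes in T-HCC662 and T-HCC663, for 48 in T-HCC941 and T-HCA992, for 42 in TCi-HCC981, and for 45 in TCi-HCA984. Over all genes tested, 47.8% to 50.1% were positive. In increasing order, the median over the 50 genes was 0.30 in TCi-HCA984, 0.58 in TCi-HCC981, 1.60 in T-HCC941, 2.05 in T-HCA992, 2.18 in T-HCC663, and 2.42 in T-HCC662, and the median over all genes lay between -0.04 and 0.00. For scale, the median log2(CPM + 1) of the 50 genes had an SD of 0.416 between the 6 livers. This is the spread of a level and not of a tumor-liver difference, for which no spread was measured. The medians of T-HCC662, T-HCC663, and T-HCA992 lay within this SD of each other. This closeness depended on the pseudocount. With 0.1 CPM the median was 2.84 in T-HCC941, 2.86 in T-HCA992, 2.97 in T-HCC663, and 3.86 in T-HCC662, and it was 0.74 in TCi-HCC981 and 0.80 in TCi-HCA984, whose order turned. With the mean of the 6 livers as the reference, the median was 0.99 for TCi-HCC981 and -0.12 for TCi-HCA984. Against their own livers, both p21+/TertCi tumors had a lower median than every p21+/Tert tumor with either pseudocount.

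The medians differed between the roles and were computed with the pseudocount of 1 CPM only. No spread was measured for the median of a role in 1 tumor-liver pair, so small differences between roles cannot be judged. In T-HCA992, the mitotic kinases and passenger complex (2.12) lay close to the kinesins and spindle proteins (2.22). The kinesins and spindle proteins showed the largest medians in the p21+/Tert tumors apart from Foxm1 (3.00, 2.33, 2.05, and 2.22), whereas the genes of chromosome structure showed the smallest in T-HCC662 (1.58) and T-HCC941 (0.84) and the checkpoint genes in T-HCC663 (1.71). In TCi-HCA984 the chromosome structure genes had the largest median (0.72) and the checkpoint genes the smallest (0.09). The largest single differences were those of Mki67 in T-HCC662 (4.54), T-HCC663 (3.61), and TCi-HCA984 (1.61), of Cdc20 in T-HCC941 (3.77), of Prc1 in T-HCA992 (3.23), and of Spc25 in TCi-HCC981 (1.66). In all 6 mice, 37 of the 50 genes were higher in the tumor, compared with 10.5% of all genes tested, and 11 more were higher in 5 mice. Cks2 was higher in 3 mice and Pttg1 in 1.

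**Figure D5:**
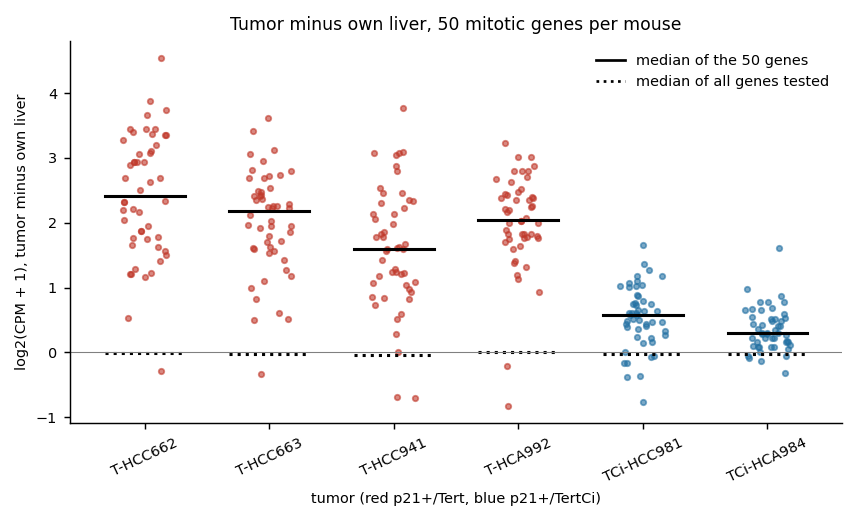
Difference in log2(CPM + 1) between each tumor and the liver of the same mouse for the 50 genes (points), with the median of the 50 genes (solid line) and of all genes tested (dotted line), red for p21+/Tert and blue for p21+/TertCi. The solid lines lie between 1.60 and 2.42 in the p21+/Tert tumors and at 0.58 and 0.30 in the p21+/TertCi tumors, and the dotted lines lie near 0 throughout.

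The highest tumor was T-HCA992 for 21 genes, T-HCC662 for 20, T-HCC663 for 7, and T-HCC941 for 2, and the lowest was TCi-HCA984 for 46. For 33 of the 50 genes, all 4 p21+/Tert tumors lay above both p21+/TertCi tumors and all 6 livers, a pattern found in 1.4% of all genes tested. Summed over the 50 genes, the level was 349 to 619 CPM in the p21+/Tert tumors and 262 and 116 CPM in the p21+/TertCi tumors, compared with 115 to 129 CPM in the p21+/Tert livers, 180 CPM in liver L981_CI, and 76.3 CPM in L984_CI. TCi-HCA984 thus lay within the range of the livers in its sum. The number of genes under 1 CPM was 30 in TCi-HCA984, 0 to 2 in the other tumors, and 8 to 37 in the livers, where 8 of the 50 genes had no count in livers p_961 and L984_CI and 7 in p_941. The liver levels of the rarest genes thus rest on few reads.

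The other genes of the pathway were listed by function, with earlier results of these data known. Of 113 such genes, 25 were up-regulated and none was down-regulated in p21+/Tert tumors, compared with 4.2% and 2.3% of all genes tested. Over both genotypes, 22 of 103 tested were up-regulated (6.77% of all genes) and 1 was down-regulated (3.91%), Lin52, a subunit of the MuvB complex (log2 fold change -0.77 ± 0.22, adjusted p = 0.0386). The median log2 fold change in p21+/Tert mice was 0.64, lower than that of the 50 genes. Most subunits of the anaphase-promoting complex are made throughout the cell cycle. Their list, which also held the enzyme Ube2s, had a median of 0.11 in p21+/Tert mice, and none of 15 passed the threshold. Anapc4 (0.55 ± 0.16, adjusted p = 0.0589) and Cdc27 (0.33 ± 0.15, adjusted p = 0.224) had the smallest p. Over both genotypes, 1 of the 15 was up-regulated, close to the share of 6.77% over all genes. In p21+/Tert mice, where 4.2% of all genes were up-regulated, other centromere and kinetochore genes gave 7 of 26, led by Dsn1 of the Mis12 complex (3.24 ± 0.43, adjusted p = 0.00359) and Oip5 (3.38 ± 0.62, adjusted p = 0.0118), which loads Cenpa. Other spindle, kinesin, and cytokinesis genes gave 6 of 20, led by Arhgap11a (3.13 ± 0.42, adjusted p = 0.00359) and Spag5 (3.38 ± 0.56, adjusted p = 0.00803).

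Other kinases and regulators of G2 and M gave 6 of 20, led by Cdca3 (3.03 ± 0.49, adjusted p = 0.00787) and Pkmyt1, an inhibitory kinase of Cdk1 (2.58 ± 0.42, adjusted p = 0.00789). Other checkpoint and anaphase regulators gave 3 of 14, led by Nek2, a centrosomal kinase (2.49 ± 0.41, adjusted p = 0.00789), and Spdl1, which recruits dynein to kinetochores (2.13 ± 0.42, adjusted p = 0.0156). Cohesin and its regulators gave 2 of 14, Sgol2a, a protector of centromeric cohesin (4.15 ± 0.85, adjusted p = 0.019), and Esco2, an acetyltransferase of cohesin (4.11 ± 1.01, adjusted p = 0.0364), and the median of the list was 0.10. The other condensin subunits gave 1 of 4, Ncapg (1.59 ± 0.39, adjusted p = 0.0366), with Ncapg2 at 2.06 ± 0.68 (adjusted p = 0.0977). In p21+/TertCi mice, none of the 113 passed the threshold in edgeR.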

How the data were processed

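Poly(A) RNA of 12 mouse livers and liver tumors had been sequenced as paired ends. The authors removed reads under Phred 30, aligned with Subread to mm10 with the mCherry transgene added, and deposited whole-number counts per gene from featureCounts 1.6.4; strand setting and annotation release are not given in the sources used here. Groups and mouse numbers came from the sample titles and genotype labels. The counts were tested with edgeR 4.0.16 (limma 3.58.1, R 4.3.3): TMM scaling, edgeR's default expression filter, and the quasi-likelihood test with Benjamini-Hochberg adjustment over all genes tested, at a threshold of 0.05. The comparison of 6 tumors with 6 livers used tissue alone, and the others used 1 model of 4 groups over all 12 libraries. The study corrected for sequencing run, which the labels do not give, so no run term was used. The scripts were tested on simulated data.

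Alternatives were DESeq2 1.42.0, RLE size factors, no filter beyond 1 count in any library, the mouse as a replicate block, fits on the compared libraries alone, each library left out, a pseudocount of 0.1 CPM, and the mean of the livers as reference. Tumor and liver of a number come from the same mouse, which pairs them (the liver p_961 by elimination). Their deviations from the group means correlated at 0.191, 0.0448, 0.0395, and 0.444 in the p21+/Tert mice. The p21+/TertCi mice gave a single value, 0.549, because with 2 libraries a group the deviations of both mice mirror each other. Exon lengths and overlaps came from GENCODE M21, near-identical copies from minimap2 2.31, and promoter windows from RefSeq (GRCm38.p6); 39 of the 41 genes with a window had 1 window.

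The 50 genes, the other lists, and the genes named were chosen with earlier results of these data known. Values in every library are given for genes picked by role, for the 3 largest and 3 smallest log2 fold changes in p21+/Tert mice, and for genes left untested or negative in a comparison; those of Aurka, Spc25, and Kif23 were added after their values were seen. Of each other list, the 2 genes of smallest p are named, and any gene that passed the threshold against the direction of its list.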

Additional observations from a re-analysis of the deposited data

Results flagged for a closer look

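Dixon's test at the 95% level was applied to log2(CPM + 1) of picked genes, in overlapping groups of 4 or 6 libraries. Among 104 groups of values examined, 6 held a library that it marks as an outlier. This is close to the share of about 1 in 20 that chance gives. T-HCC941 was the low library among the 4 p21+/Tert tumors for Cdk1 (8.00 CPM, others 12.3 to 12.9 CPM), for Mki67 (28.9 CPM, others 49.2 to 53.8 CPM), and for Smc4 (14.2 CPM, others 20.3 to 21.9 CPM). Liver L981_CI was the high library among the 6 livers for Ccnb1 (1.94 CPM, others 0 to 0.192 CPM) and for Prc1 (2.57 CPM, others 0.571 to 0.904 CPM). TCi-HCA984 was the low library among the 6 tumors for Top2a (1.03 CPM, others 12.2 to 31.0 CPM). None of the 50 genes moved one way in every p21+/Tert mouse and the opposite way in every p21+/TertCi mouse.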

How the results depend on the processing

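In the comparison of 6 tumors with 6 livers, DESeq2 called 42 of the genes (10.5% of all genes) and the mouse block 40; in p21+/Tert mice, the block and the fit on the compared libraries alone each called 46, and RLE factors left both counts as they were. Leaving out 1 library gave 22 to 45 and 7 to 44, as reported with each library above, and the cause was not tested. DESeq2 called 1 gene in p21+/TertCi mice and 3 between the tumors of the genotypes, where edgeR called none. Cks2 over 6 tumors changed sign, to 0.00951 with DESeq2, 0.00861 with RLE, and 0.00964 with every gene of at least 1 count kept, and ran from -0.22 to 0.12 without 1 library (p21+/Tert mice, -0.11 to 0.39). In p21+/TertCi mice, the values without 1 library ran from -3.02 to 6.76 for Ccnb1, whose remaining liver had no count, from -0.68 to 3.41 for Cdk1, and from -0.77 to 4.88 for Mki67; the block gave 0.064 for Ccnb1. A pseudocount of 0.1 CPM raised the own-liver medians to 3.86, 2.97, 2.84, 2.86, and 0.80 in T-HCC662, T-HCC663, T-HCC941, T-HCA992, and TCi-HCA984, and the mean of the livers as reference gave 0.99 in TCi-HCC981 and -0.12 in TCi-HCA984. The replicate block moved neither count by over 1.5 times and called no gene in p21+/TertCi mice. With the block, none of the 50 genes passed in the interaction of tissue and genotype. No paired analysis was possible for tumors alone or livers alone between genotypes because no mouse carries both. Depth limits the rarest genes, of which up to 8 had no count in a liver.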

Other observations

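Psrc1, which encodes a microtubule-associated protein of the mitotic spindle, was singled out after its values were seen. It was present at 0.357, 0.256, 0.848, and 0.372 CPM in the p21+/Tert livers and at 0.929 and 0.495 CPM in the p21+/TertCi livers. The tumors held 1.48, 3.84, 53.5, and 40.2 CPM in p21+/Tert mice and 82.7 and 5.75 CPM in p21+/TertCi mice. Its order across tumors was unlike that of the 50 genes, since TCi-HCC981 held the most and T-HCC662 the least. The log2 fold change was 5.76 ± 1.28 in p21+/Tert mice (edgeR, adjusted p = 0.0246) and 5.94 ± 1.75 in p21+/TertCi mice (adjusted p = 0.303).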
